A study of Mus musculus with 6 samples.

Results

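The Slc25 family is the set of carrier proteins that move metabolites across the inner membrane of mitochondria. Its members were taken here as every protein-coding row of the deposited table whose GRCm38 symbol in GENCODE M21 is Slc25a followed by a number, which gave 47 of 54385 rows. The RNA came from interscapular brown adipose tissue, a fat depot of the upper back that burns fuel for heat, taken at 20 weeks of age from C57BL/6N mice. The series text calls the depot inguinal, and the sample labels, which say interscapular, are followed. All mice had chow until 8 weeks of age, then a high-fat diet (D12492) for 12 weeks, and were held at 4 °C for 24 h. Wild-type mice (wt/wt, 3 libraries) were compared with ADCY3∆AT mice (3 libraries), described as a knockout of Adcy3-AT, where Adcy3 encodes a cyclase that produces the messenger cyclic AMP. How the allele was made was not stated in the labels, which also do not say that each replicate is a separate animal. The p-values therefore measure the spread between these libraries, which may be technical.

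Most Slc25 proteins exchange a substrate of the cytosol for one of the mitochondrial matrix. Through them ADP and phosphate enter and ATP leaves, fatty acyl groups reach beta-oxidation as acylcarnitines, citrate leaves for lipid synthesis, and NAD, coenzyme A, iron, glutathione and amino acids cross the membrane. The uncoupling protein Ucp1, through which brown fat makes heat, belongs to the same protein family but does not carry an Slc25a symbol in this annotation. By the symbol rule it is not counted among the members here, and neither are Ucp2 and Ucp3. Brown adipocytes are rich in mitochondria and depend on several of these carriers, among them the acylcarnitine carrier Slc25a20 and Slc25a44, which brings branched-chain amino acids into mitochondria.

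The libraries held from 44826777 to 54933588 estimated counts, of which the family took from 0.421% to 0.439%. Adcy3 had 676.9, 727.8 and 651.9 CPM (counts scaled to library size with TMM factors) in wild type, against 348.5, 341.9 and 505.6 CPM in ADCY3∆AT. The only row of the table that passed in edgeR has an identifier absent from GENCODE M21 (ENSMUSG66666620654). It held 628.6, 552.3 and 477.4 CPM in wild type but was listed at 0 in each ADCY3∆AT library. Whether this row stands for Adcy3-AT is not stated in the labels. On the first principal component of log2 CPM, which held 38.1% of the variance, wild type spanned -29.8 to -22.0, while ADCY3∆AT replicates 1, 2 and 3 had scores of 53.2, 22.7 and 1.82. The last of these, replicate 3, lay nearest to wild type. All 12 brown adipocyte markers were detected in every library, with a summed level of 20190 to 20250 CPM in wild type, against 19140 to 19630 CPM in ADCY3∆AT. The 20 skeletal muscle markers summed to 1206, 921.5 and 1996 CPM in wild type, against 250.4, 482.2 and 625.8 CPM in ADCY3∆AT, where 4 of them (Ckm, Myh7, Pvalb and Ryr1) were at 0 in replicate 1. Endothelial markers summed to 973.4 to 1041 CPM in wild type, against 1053 to 1117 CPM in ADCY3∆AT. The sums of these 3 lists did not overlap between the genotypes, and their part in the results was not tested. In bulk tissue, fewer cells of a type and less RNA per cell cannot be told apart.

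No carrier of the family changed beyond the test's threshold between the genotypes, and most of the differences were small. Estimates ran from -0.53 to 0.38 (log2). The row annotated as Adcy3, at a log2 fold change of -0.78, also missed the threshold in edgeR (adjusted p = 0.158). The unannotated row ENSMUSG66666620654, given above, passed it (edgeR adjusted p = 7.9e-06). Of the 47 members 42 had enough counts to be tested, and none passed in edgeR's quasi-likelihood test at an adjusted p of 0.05, where 0.0% of all 18114 genes were called higher and 0.00552% lower. The lowest adjusted p of a member was 0.376 (Slc25a22). DESeq2, which called 1.17% of the genes it adjusted (0.449% higher and 0.721% lower), and limma voom, which called 0.011%, also called 0 members, with lowest adjusted p-values of 0.256 and 0.370. At an unadjusted p under 0.05 edgeR listed 1 member as higher, against 5.23% of all genes, and 4 as lower, against 5.78%. Together these are 11.9% of the tested members, beside 11.0% of all genes.

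The separation of single libraries was counted as well. The groups did not overlap for 1 member that was higher in ADCY3∆AT, Slc25a27, against 7.68% of all genes. They did not overlap for 6 that were lower, Slc25a5, Slc25a51, Slc25a4, Slc25a17, Slc25a44 and Slc25a15, against 8.83%. These 7 are 16.7% of the tested members, beside 16.5% of all genes tested. Of the 42 fold changes 19 were above 0 and 23 below, and their median was -0.02 (log2), beside 0.00 over all genes tested. The split was 21 and 21 with library totals alone as the scaling, and also without ADCY3∆AT replicate 3. The median size of the change, without its sign, was 0.09 for members and 0.12 for all genes.

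**Figure D1:**
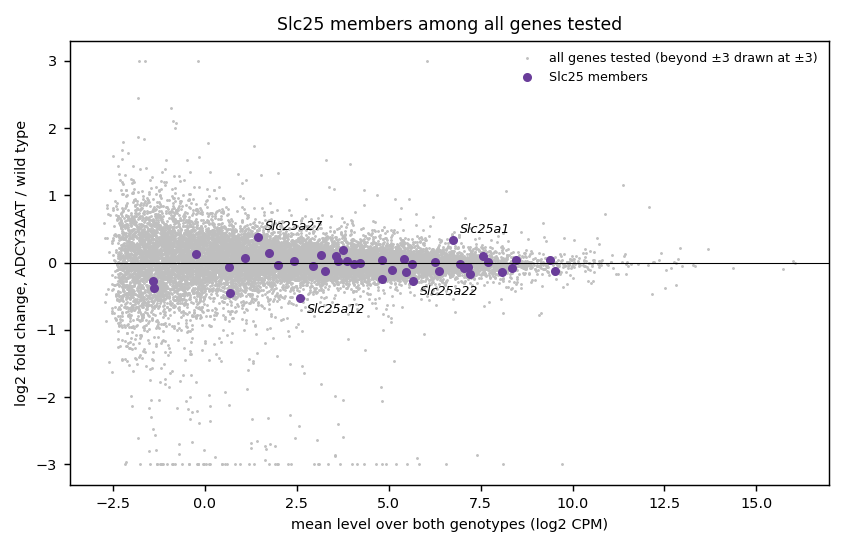
Mean level over both genotypes (x axis, log2 CPM) and log2 fold change of ADCY3∆AT relative to wild type (y axis) for all 18114 genes tested (grey, with changes beyond the axis drawn at its edge) and for 41 of the 42 tested Slc25 members (purple). The members lie between -0.53 and 0.38, within the cloud of other genes of like level.

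The precision of these differences can be read from their 95% intervals, each for a single gene and not adjusted. For 33 of the 42 members the interval lay within a 1.5-fold change in either direction, a size chosen after the values had been seen. Among the 28 members with a mean of at least 10 CPM the count was 26. The exceptions were Slc25a1, whose interval reached a ratio of 1.57, and Slc25a25, whose interval reached 1.53. For the weakly expressed Slc25a43 the interval ran from a ratio of 0.377 to 1.58, so that a change of that size was not detectable at this depth. All members counted here, without the uncoupling proteins, summed to 4377, 4372 and 4304 CPM in wild type, against 4283, 4277 and 4204 CPM in ADCY3∆AT. On this scale every ADCY3∆AT sum was below those of wild type, with a mean difference of -2.21% of the wild-type mean. As a share of the deposited counts the groups overlapped, at 0.437%, 0.421% and 0.439% in wild type, against 0.421%, 0.434% and 0.428% in ADCY3∆AT. The sum of the brown adipocyte markers was lower in the same libraries, as given above, and Ucp1 alone made up 9972 to 10650 CPM of it. By gene, 3 of these 12 markers had a log2 fold change above 0 and 9 below, with a median of -0.04. The groups did not overlap for 4 of them, all lower, against 8.83% of all genes. With library totals alone as the scaling, the difference of the means was -50.4 CPM in place of -96.1 CPM.

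**Figure D2:**
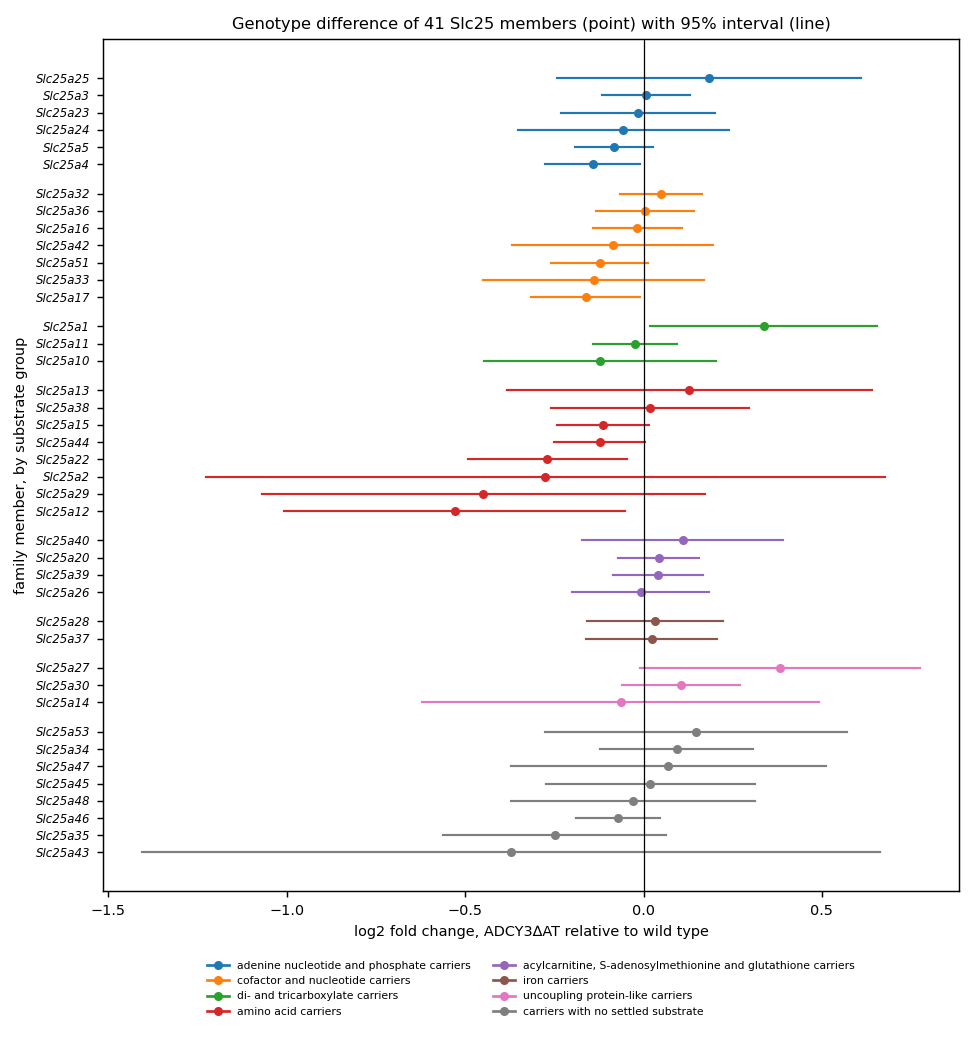
Log2 fold change of ADCY3∆AT relative to wild type (x axis) for 41 of the 42 tested members (y axis), coloured by substrate group. Points are the edgeR estimates and lines their 95% intervals over 3 libraries per genotype; the intervals of the amino acid carriers Slc25a12 and Slc25a22, of Slc25a4 and Slc25a17 and of Slc25a1 leave out 0 before adjustment, and none passes after it.

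Levels were compared between genes per kilobase of exonic length. The highest of the members counted here was Slc25a5, an ADP/ATP carrier (ENSMUSG00000016319, chromosome X, 36795651 to 36798807, plus strand, GRCm38), with 200.1 ± 7.5 CPM per kb (SD over 6 libraries). Slc25a20, the acylcarnitine carrier (ENSMUSG00000032602, chromosome 9, 108662088 to 108684641, plus strand), followed with 137.9 ± 4.0 CPM per kb. Next came Slc25a51, the mitochondrial NAD carrier, with 133.5 ± 8.5 CPM per kb and Slc25a39, the glutathione carrier, with 127.7 ± 5.0. Slc25a4, the second ADP/ATP carrier, had 114.5 ± 7.7 CPM per kb. These 5 genes held 57.4% of the summed level per kb of the members counted here, and the 12 highest held 87.4%. Ucp1 is not in these sums.

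Slc25a5 lay above Slc25a20 in every library, whereas the ranges of Slc25a20, Slc25a51, Slc25a39 and Slc25a4 each overlapped that of their neighbour among these 4. Further down Slc25a34 had 70.5 CPM per kb, and the 2-oxoglutarate/malate carrier Slc25a11 had 57.9. Slc25a17, a carrier of coenzyme A and related cofactors in peroxisomes, had 51.8, Slc25a1, the citrate carrier, 49.5, the phosphate carrier Slc25a3 37.5, and Slc25a46, an outer membrane protein, 26.2 CPM per kb. Over the whole order, 37 of 46 neighbouring pairs overlapped in range. The median tested member had 6.56 CPM per kb, against 1.97 for all genes tested, and Ucp1 had 6289. The order depends on the length used: with the longest transcript in place of all exonic bases, 11 of the 12 highest members were shared.

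**Figure D3:**
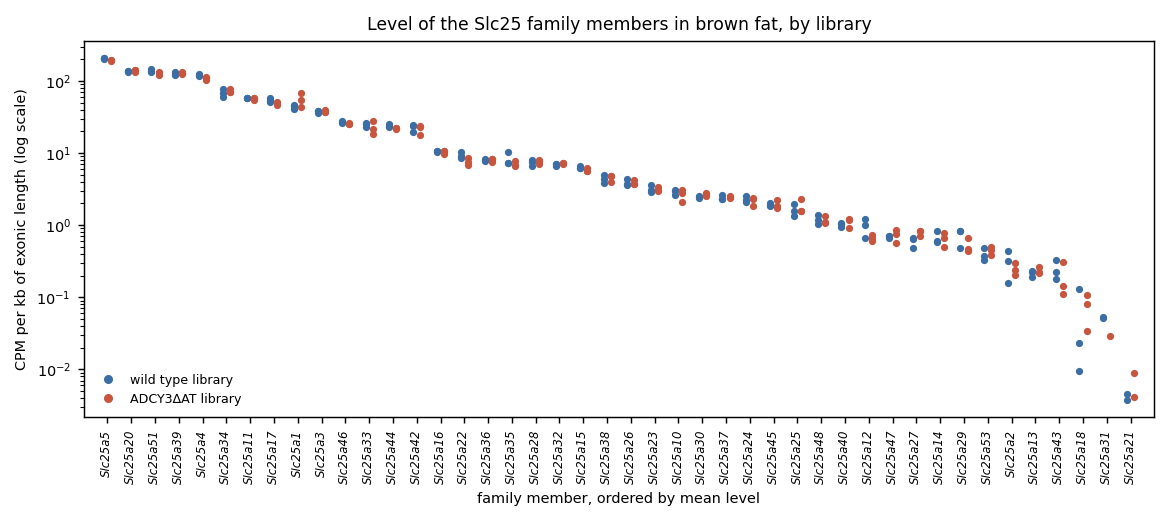
CPM per kb of exonic length on a log scale (y axis) for 44 members with counts (x axis, by mean level), with each library as a point, blue for wild type and red for ADCY3∆AT; values of 0 cannot be drawn. Levels fall from 200.1 CPM per kb for Slc25a5 to 0.00356 for Slc25a21, and the genotypes lie close together over nearly the whole order.

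At the bottom of the order 5 members were not tested. Slc25a18, a glutamate carrier, had 1.0 to 11.0 estimated counts per library. Slc25a31, the ADP/ATP carrier of male germ cells, had at most 6.0, and Slc25a21, an oxodicarboxylate carrier, at most 2.0. Slc25a41 and Slc25a54 were listed at 0 in all 6 libraries, where a count of 0 allows up to 3 counts, or 0.0547 to 0.0681 CPM. Such limits cover counting error only.

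Because the genotype alters an enzyme of cyclic AMP, promoter windows of RefSeq (GRCm38.p6, 250 bases before to 50 after each start) were searched on both strands for the cyclic AMP response element TGACGTCA and for 3 further motifs. The table matched 36 of the 47 members, with 46 windows. TGACGTCA was in 2 of these (4.3%), against 1.79% of all 32851 windows. The E-box CACGTG was in 8 (17.4%), against 7.15%. Of these, 2 windows of Slc25a14 hold the same E-box, and by gene it was in 7 of 36 members (19.4%), against 8.09% of all genes with windows. The element of the oestrogen-related receptors, TCAAGGTCA, and that of NRF1 were in 0 of 46, against 0.42% and 0.97%. No searched motif overlapped another in the windows printed. A match is a description of letters, not of binding. Shown are the windows with the cyclic AMP element, and that of Slc25a1, the only member listed as higher at an unadjusted p under 0.05, with the motif in capitals and each read 5′ to 3′ on the minus strand.
Slc25a25, chr2:32424169-32424256: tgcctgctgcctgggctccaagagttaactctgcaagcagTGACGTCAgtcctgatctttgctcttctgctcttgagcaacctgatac
Slc25a36, chr9:97111155-97111242: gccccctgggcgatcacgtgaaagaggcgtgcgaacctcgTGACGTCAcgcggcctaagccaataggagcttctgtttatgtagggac
Slc25a1, chr16:17928413-17928469: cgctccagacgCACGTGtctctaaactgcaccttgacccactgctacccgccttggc
The element of Slc25a25 began 150 bases before its start, and that of Slc25a36 began 161 bases before its start. Both of these starts lie within the annotated genes. Neither gene passed in edgeR, with log2 fold changes of 0.18 ± 0.19 and 0.00 ± 0.06 (SE; adjusted p = 0.760 and 0.986). The window of Slc25a36 also held an E-box, 187 bases before the start, which is in lower case here.

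Among the carriers of adenine nucleotides and phosphate, 6 of 8 members were tested and 2 had groups that did not overlap, both lower, beside 8.83% of all genes. Slc25a5 had 344.5, 342.2 and 329.9 CPM in wild type, against 320.5, 312.9 and 326.4 CPM in ADCY3∆AT. The ranges came within a few CPM of each other, and the log2 fold change was -0.08 ± 0.05 (SE; edgeR adjusted p = 0.574). Slc25a4, the ADP/ATP carrier typical of heart and skeletal muscle (ENSMUSG00000031633, chromosome 8, 46206797 to 46211284, minus strand), had 285.0, 272.8 and 290.0 CPM in wild type. In ADCY3∆AT it had 268.7, 258.9 and 240.5 CPM, so that each library lay below each of wild type, at a log2 fold change of -0.14 ± 0.06 (SE; edgeR adjusted p = 0.424). The summed muscle markers were also lower in all 3 ADCY3∆AT libraries, though in another order. Their sum was lowest in replicate 1 while Slc25a4 was lowest in replicate 3. The part of muscle in this difference was not tested. The ratio of Slc25a5 to Slc25a4 per kb, in which library scaling cancels, was 1.72 ± 0.08 in wild type and 1.79 ± 0.13 in ADCY3∆AT (SD, n = 3 each), with overlapping values.

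Slc25a3, which brings phosphate to the ATP synthase, had 200.2, 212.4 and 210.4 CPM in wild type, against 218.1, 203.2 and 204.1 CPM in ADCY3∆AT. Its log2 fold change was 0.01 ± 0.05 (SE), with an interval from a ratio of 0.922 to 1.09. The calcium-regulated ATP-Mg/phosphate carriers were far lower. Slc25a23 had a mean of 16.9 CPM in wild type, against 16.7 CPM in ADCY3∆AT, and Slc25a24 had 7.79 and 7.49 CPM. Slc25a25, a carrier of the same kind whose RNA is known to respond to cold, had 15.3, 10.4 and 12.2 CPM in wild type, against 12.4, 18.4 and 12.4 CPM in ADCY3∆AT. Its window with the cyclic AMP element is printed above. ADCY3∆AT replicate 2 alone was high, and without it the log2 fold change of 0.18 ± 0.19 (SE) became -0.03.

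Carriers of cofactors and nucleotides made up 8 tested members, of which 2 had groups that did not overlap, both lower, beside 8.83% of all genes. Slc25a51 (ENSMUSG00000045973, chromosome 4, 45395923 to 45408766, minus strand) had 742.7, 810.5 and 747.1 CPM in wild type, against 668.5, 710.0 and 734.3 CPM in ADCY3∆AT. The highest ADCY3∆AT library was thus close to the lowest of wild type, and the log2 fold change was -0.12 ± 0.06 (SE; edgeR adjusted p = 0.508). Slc25a17 had 167.2, 146.4 and 153.4 CPM in wild type, against 131.8, 146.1 and 139.3 CPM in ADCY3∆AT. Its groups were separated by 146.4 against 146.1 CPM alone, and the log2 fold change was -0.16 ± 0.07 (SE; edgeR adjusted p = 0.426).

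The other cofactor carriers described had groups that overlapped. For the coenzyme A carriers, Slc25a42 had 136.3 ± 16.0 CPM in wild type, against 128.4 ± 19.5 CPM in ADCY3∆AT (SD, n = 3 each), and Slc25a16 had 50.2 ± 0.7 and 49.6 ± 2.7 CPM. Slc25a32, which takes up folate and FAD, had 40.2, 43.1 and 42.8 CPM in wild type, against 43.8, 44.1 and 42.5 CPM in ADCY3∆AT. The pyrimidine nucleotide carriers differed in their spread. Slc25a36 had 77.1 ± 2.9 and 77.3 ± 4.4 CPM, while Slc25a33 ranged in ADCY3∆AT from 34.6 CPM in replicate 1 to 52.1 CPM in replicate 3, against 42.8 to 49.6 CPM in wild type. Its log2 fold change was -0.14, and -0.31 without ADCY3∆AT replicate 3.

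Of the carriers of citrate and dicarboxylates, Slc25a1 differed most. This carrier exports citrate to the cytosol, where ATP citrate lyase (Acly) turns it into acetyl-CoA for fatty acid synthesis (ENSMUSG00000003528, chromosome 16, 17925223 to 17928219, minus strand). It had 99.2, 88.5 and 96.3 CPM in wild type, against 146.7, 117.1 and 94.9 CPM in ADCY3∆AT. Replicates 1 and 2 of ADCY3∆AT lay above all wild-type libraries and replicate 3 lay within their range. The log2 fold change was 0.34 ± 0.14 (SE; edgeR adjusted p = 0.426), and 0.48 without ADCY3∆AT replicate 3 (adjusted p = 0.0926) or 0.16 without replicate 1. Its promoter window, printed above, holds an E-box, as do windows of Slc25a13, Slc25a14, Slc25a15, Slc25a31, Slc25a33 and Slc25a36. Where tested, these other members had log2 fold changes from -0.14 (Slc25a33) to 0.13 (Slc25a13).

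In the list of citrate use and the malate-aspartate shuttle, 3 of 12 genes (Acly, Me1 and Gpd1) had ADCY3∆AT replicates 1 and 2 above all wild-type libraries. The share of all genes with this pattern was not counted. Acly had 193.2, 167.3 and 206.6 CPM in wild type, against 570.4, 438.7 and 172.8 CPM in ADCY3∆AT (log2 fold change 1.06 ± 0.35, SE; edgeR adjusted p = 0.338). Me1, malic enzyme, which makes NADPH, had 207.0, 189.4 and 189.8 CPM and then 302.4, 249.3 and 190.9 CPM. In each of Slc25a1, Acly and Me1 ADCY3∆AT replicate 1 was highest, replicate 2 second and replicate 3 level with wild type. The ADCY3∆AT libraries had the same order on the first principal component of all genes tested, at 53.2, 22.7 and 1.82. Wild type lay at -29.8 to -22.0 there, so that the order is not particular to these genes. Gpd1, the cytosolic glycerol-3-phosphate dehydrogenase, had 5723, 5539 and 4649 CPM in ADCY3∆AT, and wild type reached 5488 CPM. Mdh1, the cytosolic malate dehydrogenase, had 414.3, 432.0 and 427.9 CPM in wild type, against 471.5, 401.2 and 354.4 CPM in ADCY3∆AT, and so was high in replicate 1 alone. The white adipocyte markers, of which 7 of 8 were found and Tcf21 was at 0 in all libraries, were summed as well. Their sum had the same order within ADCY3∆AT, at 58.1, 45.4 and 21.4 CPM, against 29.9, 28.5 and 43.5 CPM in wild type. Among them Lep, which encodes leptin, had 5.67, 4.50 and 9.49 CPM in wild type, against 22.9, 17.4 and 2.30 CPM in ADCY3∆AT. Nnat and Retn had the same order within ADCY3∆AT, and Agt, Hoxc8 and Hoxc9 did not. Of the 5 markers tested 2 had a log2 fold change above 0 and 3 below, with a median of -0.22, and the groups of each overlapped. The part of these markers, or of the first principal component, in the pattern of Slc25a1, Acly and Me1 was not tested. Without replicate 3, Acly passed in edgeR (log2 fold change 1.42, adjusted p = 0.0126). The other carriers of the group did not share this pattern: Slc25a11 had 123.8 ± 1.3 CPM in wild type, against 121.6 ± 4.8 CPM in ADCY3∆AT (SD, n = 3 each), and the dicarboxylate carrier Slc25a10 had 10.7, 9.04 and 10.3 CPM in wild type, against 10.7, 9.65 and 7.27 CPM in ADCY3∆AT.

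**Figure D4:**
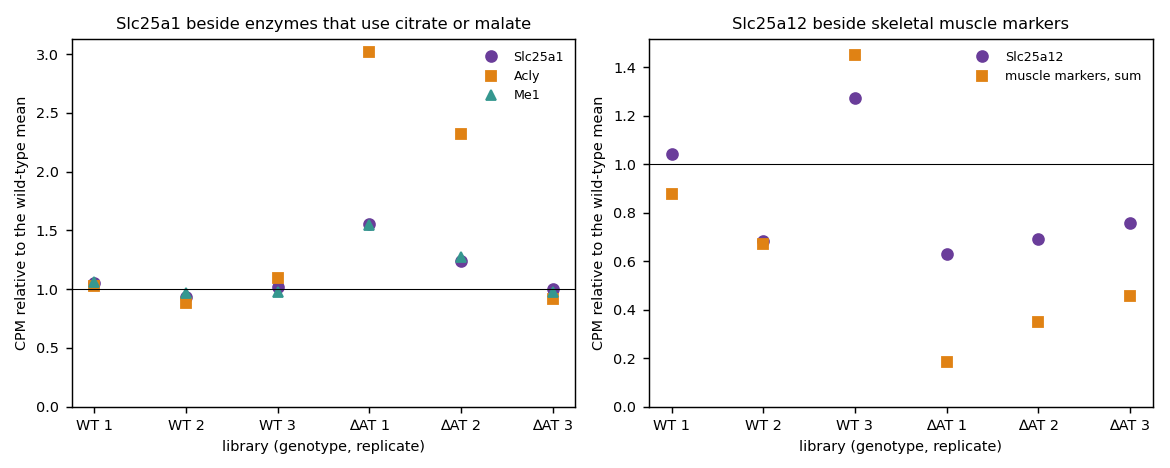
CPM in each library relative to the wild-type mean (y axis) by library (x axis, genotype and replicate). On the left, Slc25a1, Acly and Me1 are high in ADCY3∆AT replicates 1 and 2 and near the wild-type level in replicate 3; on the right, Slc25a12 and the sum of 20 skeletal muscle markers have their highest value in wild-type replicate 3 and their lowest in ADCY3∆AT replicate 1.

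Of the amino acid carriers 6 of 8 tested members were below 0, beside 8890 of all 18114 genes, and their median log2 fold change was -0.20. Without wild-type replicate 2 the count was 5 of 8 and the median -0.11, and with DESeq2, which took in 9 members, the median was -0.12. Slc25a22, a glutamate carrier (ENSMUSG00000019082, chromosome 7, 141429744 to 141437892, minus strand), had 54.1, 61.1 and 50.5 CPM in wild type, against 40.9, 45.1 and 51.5 CPM in ADCY3∆AT. Replicates 1 and 2 of ADCY3∆AT lay below wild type and replicate 3 within it. The log2 fold change of -0.27 ± 0.10 (SE; edgeR adjusted p = 0.376) became -0.36 without replicate 3 (adjusted p = 0.136). Slc25a44 (ENSMUSG00000050144, chromosome 3, 88410498 to 88425139, minus strand) had 81.9, 90.4 and 85.4 CPM in wild type, against 80.7, 76.2 and 79.7 CPM in ADCY3∆AT. Its groups did not overlap, but the nearest libraries were 80.7 and 81.9 CPM, and the log2 fold change was -0.12 ± 0.06 (SE; edgeR adjusted p = 0.474). Slc25a15, the ornithine carrier of the urea cycle, had 35.7 ± 0.9 and 33.0 ± 1.7 CPM (SD, n = 3 each), also without overlap.

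Slc25a12, the aspartate/glutamate carrier of muscle and brain that serves the malate-aspartate shuttle (ENSMUSG00000027010, chromosome 2, 71271063 to 71367749, minus strand), had the largest negative change of a tested member. It had 7.38, 4.84 and 9.01 CPM in wild type, against 4.46, 4.90 and 5.36 CPM in ADCY3∆AT. Wild-type replicate 2 lay within the ADCY3∆AT range, and the log2 fold change was -0.53 ± 0.21 (SE; edgeR adjusted p = 0.413). The summed muscle markers were ordered alike within each genotype, at 1206, 921.5 and 1996 CPM and then 250.4, 482.2 and 625.8 CPM, and their part in the difference was not tested. Its relative Slc25a13, typical of liver, had 0.815 ± 0.084 and 0.891 ± 0.086 CPM (SD, n = 3 each). Per kb, Slc25a12 exceeded Slc25a13 by 2.78-fold to 6.46-fold over the libraries. The rest of the group was low, with 12.2 and 12.3 CPM for Slc25a38, a carrier linked to glycine and haem synthesis, 1.87 and 1.36 CPM for the basic amino acid carrier Slc25a29, and 0.415 and 0.338 CPM for the ornithine carrier Slc25a2 (means of wild type and ADCY3∆AT).

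**Figure D5:**
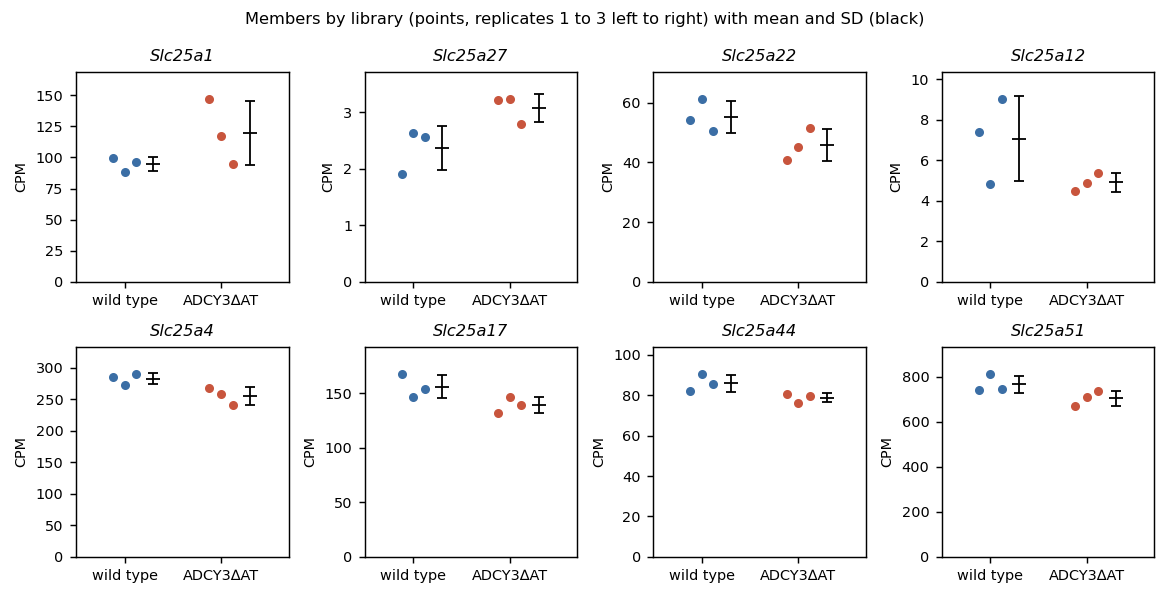
CPM (y axis, from 0) by genotype (x axis) for 8 members, with each library as a point and the mean and SD over 3 libraries in black. Slc25a1 and Slc25a22 have ADCY3∆AT replicate 3 (rightmost point) within the wild-type range, while Slc25a27, Slc25a4, Slc25a17, Slc25a44 and Slc25a51 have groups that do not overlap but lie close together.

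The carriers of acylcarnitine, S-adenosylmethionine and glutathione had no member without overlap. Slc25a20, through which long-chain fatty acids reach oxidation, had 662.4, 642.7 and 669.4 CPM in wild type, against 698.5, 679.5 and 654.5 CPM in ADCY3∆AT. Its log2 fold change was 0.04 ± 0.05 (SE), with an interval from a ratio of 0.951 to 1.11. Slc25a39 had 364.6, 340.0 and 336.3 CPM and then 344.0, 369.0 and 357.7 CPM, at a log2 fold change of 0.04 ± 0.06 (SE). Its relative Slc25a40 had 8.59 ± 0.60 and 9.26 ± 1.40 CPM (SD, n = 3 each). Per kb, Slc25a39 exceeded Slc25a40 by 109-fold to 136-fold. Slc25a26, which brings S-adenosylmethionine to the matrix, had 18.8 ± 1.7 and 18.7 ± 1.3 CPM.

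Both mitoferrins, which bring iron to the matrix, were present at like levels in the genotypes. Slc25a28, the widely expressed form, had 27.7 ± 2.8 CPM in wild type, against 28.4 ± 1.6 CPM in ADCY3∆AT (SD, n = 3 each). Slc25a37, the form of red cell precursors, had 15.9, 13.7 and 13.8 CPM and then 14.7, 14.2 and 15.3 CPM. Slc25a28 exceeded Slc25a37 by 2.89-fold to 3.39-fold per kb. The erythroid markers summed to 2033, 1448 and 1399 CPM in wild type, against 1350, 1375 and 1484 CPM in ADCY3∆AT. Wild-type replicate 1 was thus highest both in these markers and in Slc25a37, and their part in the level of Slc25a37 was not tested.

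Among the carriers closest to the uncoupling proteins, Slc25a27, mostly known from brain (ENSMUSG00000023912, chromosome 17, 43641891 to 43667214, minus strand), had 1.91, 2.63 and 2.56 CPM in wild type, against 3.21, 3.23 and 2.80 CPM in ADCY3∆AT. It was the only tested member counted here whose ADCY3∆AT libraries all lay above wild type, at a low level and with a log2 fold change of 0.38 ± 0.17 (SE; edgeR adjusted p = 0.470). Slc25a30 had 11.3 ± 0.4 and 12.2 ± 0.5 CPM, and Slc25a14 had 1.60 ± 0.34 and 1.53 ± 0.34 CPM (SD, n = 3 each).

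Of the 9 members grouped here as having no settled substrate 8 were tested, with 4 above 0 and 4 below and no groups without overlap. Slc25a34 was among the 12 highest of the family, with 206.9, 158.1 and 181.9 CPM in wild type, against 188.9, 204.6 and 189.5 CPM in ADCY3∆AT. Slc25a46 had 145.8 ± 5.6 and 138.8 ± 2.2 CPM (SD, n = 3 each). Slc25a35 had 38.2 CPM in wild-type replicate 2 and from 24.0 to 28.5 CPM in the other libraries. It shares 1151 exonic bases with Rangrf on the opposite strand, and the labels do not say that counting used strand. The remaining members, Slc25a43, Slc25a45, Slc25a47, Slc25a48 and Slc25a53, had means from 0.335 to 5.37 CPM in each genotype.

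Other genes of carrier biology were taken from 7 lists, and edgeR called 0 of their genes, against 0.0% called higher and 0.00552% lower. The relatives without an Slc25a symbol included Ucp2 (log2 fold change 0.38 ± 0.09, SE; edgeR adjusted p = 0.232) and Ucp3 (-0.31 ± 0.09; 0.263), and neither had overlapping groups. Ucp2 had 11.3, 13.3 and 11.4 CPM in wild type, against 14.3, 17.0 and 15.4 CPM in ADCY3∆AT, and Ucp3 had 115.0, 99.7 and 91.8 CPM and then 80.8, 79.0 and 87.0 CPM. Ucp1 had 10480, 10330 and 10650 CPM in wild type, against 10060, 10240 and 9972 CPM in ADCY3∆AT, also without overlap. Its log2 fold change was -0.06 ± 0.04 (SE; edgeR adjusted p = 0.67). Over all genes tested the groups did not overlap for 7.68% (higher) and 8.83% (lower). The subunits of the mitochondrial pyruvate carrier differed little, with 464.0 and 450.1 CPM for Mpc1 and 400.8 and 388.0 CPM for Mpc2. In the list that holds these genes and the uncoupling proteins, 9 of 12 were below 0, beside 8890 of all 18114 genes.

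The list of carrier import machinery also holds Tomm genes of the outer membrane, which are not particular to carriers. It had a negative fold change for all 16 of its tested members, beside 8890 of all 18114 genes. The median was -0.09 (log2) against 0.00 for all genes. With library totals alone it was again 16 of 16, and leaving out each library in turn gave 15 or 16. The median was -0.05 without ADCY3∆AT replicate 1 and -0.06 without wild-type replicate 2. Groups did not overlap for 5 of the 16, all lower, against 8.83% of all genes. Timm8a1, a small chaperone of the space between the membranes, had 46.3, 43.4 and 46.6 CPM in wild type, against 35.7, 40.5 and 38.2 CPM in ADCY3∆AT (log2 fold change -0.26 ± 0.06, SE; edgeR adjusted p = 0.223). Timm9, which escorts carrier precursors, had 42.9, 45.2 and 42.2 CPM and then 37.7, 36.3 and 38.5 CPM (-0.21 ± 0.05; 0.227). For both chaperones the highest ADCY3∆AT value was under the lowest of wild type.

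Of the ATP synthase subunits 12 of 15 tested were below 0, beside 8890 of all 18114 genes, and 8 of 15 without ADCY3∆AT replicate 2. Their median log2 fold change was -0.03 (-0.0045 without that replicate). Groups did not overlap for 4 of the 15, all lower, against 8.83% of all genes. Atp5g1 was at -0.45 ± 0.14 (SE; edgeR adjusted p = 0.316) and the inhibitor Atpif1 at 0.24 ± 0.14 (0.590). In the list of citrate use and the shuttle 6 of 12 were above 0, and Got1, the cytosolic aspartate aminotransferase, had 81.1, 82.5 and 67.2 CPM in wild type, against 38.8, 56.1 and 67.9 CPM in ADCY3∆AT. Got1 was thus low in ADCY3∆AT replicates 1 and 2 and within wild type in replicate 3. In the carnitine shuttle Slc22a5, the carnitine transporter of the cell surface, had 90.2, 102.4 and 91.3 CPM and then 78.3, 79.7 and 79.5 CPM. Its groups did not overlap, and it passed in DESeq2 (adjusted p = 0.0453) but not in edgeR (log2 fold change -0.26 ± 0.06, SE; adjusted p = 0.216). Cpt1b, the step before Slc25a20, had 1511 ± 50.6 and 1459 ± 61.6 CPM (SD, n = 3 each).

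Oxidation of branched-chain amino acids, the route served by Slc25a44, had 9 of 10 members below 0, beside 8890 of all 18114 genes, and a median log2 fold change of -0.15. The count was 9 of 10 whichever library was left out, while the median was -0.09 without wild-type replicate 2. The gene above 0 was Bckdk (log2 fold change 0.13 ± 0.06, SE; edgeR adjusted p = 0.441). Groups did not overlap for 1 gene that was higher, Bckdk, and 1 that was lower, Dbt, against 7.68% and 8.83% of all genes. Dbt, a subunit of the branched-chain keto acid dehydrogenase, had 270.9, 270.9 and 261.3 CPM in wild type, against 222.1, 225.0 and 259.8 CPM in ADCY3∆AT (log2 fold change -0.18 ± 0.07, SE; edgeR adjusted p = 0.387). Ivd, which acts further along, had a log2 fold change of -0.21 ± 0.09 (0.437). Without ADCY3∆AT replicate 3, Ppm1k, the phosphatase that activates that dehydrogenase, passed in edgeR as lower (log2 fold change -0.68, adjusted p = 0.0424), beside -0.37 with all libraries. Of the genes of mitochondrial iron, haem and glutathione 9 of 12 were below 0, beside 8890 of all 18114 genes, and 7 of 12 without ADCY3∆AT replicate 3 or without wild-type replicate 1. Among those below 0 was Gclm, of glutathione synthesis (log2 fold change -0.31 ± 0.12, SE; edgeR adjusted p = 0.405).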

How the data were processed

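RNA of 6 libraries was measured by paired-end sequencing of total RNA. The authors deposited 1 table of estimated counts per Ensembl gene, not normalised, of which 31.6% of values are not whole. Salmon, StringTie, edgeR and the build GRCm38 are named per the submitters' processing notes, without versions or settings. Symbols, positions and exonic lengths came from GENCODE M21 and matched 54131 rows. The 254 rows without a match held a median of 0.0271% of a library and stayed in the fit.

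Estimated counts were rounded. The filter filterByExpr left 18114 genes, and TMM set the scaling of libraries. Genotype alone was fitted in R 4.3.3 with edgeR 4.0.16, whose quasi-likelihood test gave p-values that were adjusted by Benjamini-Hochberg across the 18114 genes (threshold 0.05). A positive fold change means a higher level in ADCY3∆AT. Standard errors and 95% intervals are those implied by the F statistic. Log2 CPM values for the principal components used a prior count of 2. The fit was repeated with RLE factors, with totals of the libraries in place of factors, in DESeq2 1.42.0, in limma 3.58.1 (voom), with no low-count filter, with at least 1 CPM in at least 3 libraries, leaving out each library, and the replicate number as a block. No libraries agreed within sampling noise (chi-square per degree of freedom 24.1 to 71.7 over pairs). The fits were also run on simulated data, and the outcome is not given here.

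Full values are given for the 12 highest members per kb, the 6 lowest p-values in each direction, 6 members of known roles in brown fat and the 2 lowest p-values of each list. Other values, the paralogue ratios, Me1 and Ppm1k were picked with their values in view. A member and a listed gene that the rule names are counted but not reported here. The members and lists were chosen with earlier results of these data known. A planned comparison of protein sequences was not made, as no protein table was used here. Annotated pseudogene copies (at least 95% identity over at least 300 bases) were found for 3 members and held at most 0.142% of the member's CPM. Of the members 12 share exonic bases with a gene on the opposite strand, from which reads cannot be told apart without strand.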

Additional observations from a re-analysis of the deposited data

How the results depend on the processing

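No Slc25 member passed the threshold under any of the 13 alternatives run. Over all genes the count of calls was 1, and it was 232 in DESeq2, 2 in limma voom, 214 without a low-count filter and 3 with the replicate number as a block. Leaving out each library gave 1 to 66 genes, the highest without ADCY3∆AT replicate 3. Deviations from the group means correlated at -0.09, -0.13 and -0.09 between libraries of replicate numbers 1, 2 and 3. They thus showed no shared deviation by number, which cannot settle whether the libraries were paired. With the replicate block 0 members passed. Members at an unadjusted p under 0.05 were 5, with 3 under the block and 1 to 6 when a library was left out (1 without wild-type replicate 3, ADCY3∆AT replicate 1 or replicate 2).

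Adcy3 (log2 fold change -0.78) passed in DESeq2 (-0.78, adjusted p = 4.23e-07) and without a low-count filter (-0.78, adjusted p = 0.00321), and ranged from -0.99 to -0.68 when a library was left out, passing without ADCY3∆AT replicate 3. Of the listed pathway genes 0 passed, with 1 in DESeq2 (Slc22a5) and 0 to 2 when a library was left out. The difference in summed family level was -50.4 CPM with library totals alone and -119.7 to -70.8 CPM when a library was left out. Of 247 fold changes of 19 named members under alternatives 239 kept their direction. Part of these members were named for low p-values in the same data, and the alternatives reuse the same libraries. The count of kept directions was thus largely set in advance and does not measure robustness. The 8 that reversed all came from leaving out a library, with ranges of -0.00091 to 0.19 for Slc25a34, -0.0458 to 0.00699 for Slc25a11, -0.0289 to 0.0236 for Slc25a3, -0.0339 to 0.35 for Slc25a25 and -0.0172 to 0.10 for Slc25a37. The cause was not tested. The widest 95% interval of a tested member was that of Slc25a43, whose mean was under 1 CPM in both genotypes.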
